A study of Homo sapiens with 2 samples.

Results

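The genes described here are 10 early transcription genes, 10 of the 57820 genes of the count table: the Fos family (FOS, FOSB, FOSL1, FOSL2), the Jun family (JUN, JUNB, JUND), the zinc finger factor EGR1, the early response gene IER2 and the proto-oncogene MYC. They were chosen by name and matched by symbol to gene identifiers, and all 10 identifiers were found in both deposited tables with the same exon length. RNA came from T47D, an established human cell line of luminal, estrogen receptor-positive breast cancer. All cells had the Y537S change of ESR1, which keeps estrogen receptor alpha active in the absence of hormone. Per the labels, a control siRNA had been given at 25 nM, and the medium was hormone-deprived. The column names carry the cell line, the receptor residue and the replicate but no siRNA, so the siRNA rests on the labels alone. This made 1 group of 2 replicate libraries, with 41370662 reads on genes in replicate 1 and 37198274 in replicate 2, so no comparison between conditions was made. The other columns of the tables match no sample described here and were not used. The labels do not say whether the receptor change was carried by a single clone, nor whether replicates came from different cultures. The p-values here set the difference between these 2 libraries against counting error only, and that difference may be technical. In bulk RNA, fewer cells of a type and less RNA per cell cannot be told apart. The RNA carried the marks of luminal epithelium: all 8 luminal markers were detected, meaning 1 CPM (reads scaled to the library's reads on genes) or more in both libraries, and KRT19 had 1385 ± 19.6 TPM (SD, n = 2). Of 14 measured basal, fibroblast, immune and endothelial markers, ACTA2 and COL1A1 were detected and the other 12 were not.

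Immediate early genes are transcribed within minutes of a growth factor or stress signal, before any new protein is made, and their transcripts are short-lived. Fos and Jun proteins join through a leucine zipper into the transcription factor AP-1, and Jun proteins can also pair with each other, whereas Fos proteins need a partner. MYC acts as a dimer with MAX and drives genes of ribosome production and growth, and in estrogen receptor-positive breast cancer cells it is a known target of the receptor.

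Early genes are known to be switched on through short promoter elements. The promoters of 4 members are shown for examples of these close to the start. JUND has a full cyclic AMP response element and JUN its own variant of it. FOS has the core and a TATA box, and EGR1 has CArG boxes. The sequences are the 250 bases before the RefSeq start on GRCh38.p14, 5′ to 3′ on the gene's strand. They lie at chr19:18281623-18281872 (minus strand) for JUND, chr1:58784048-58784297 (minus) for JUN, chr14:75278578-75278827 (plus) for FOS and chr5:138465229-138465478 (plus) for EGR1. Capitals mark matches on either strand to the cyclic AMP response element TGACGTCA, its core TGACG, the element TGACATCA known from the JUN promoter, the AP-1 element TGANTCA, the CArG box bound by serum response factor, and the TATA box TATAAA.
JUND: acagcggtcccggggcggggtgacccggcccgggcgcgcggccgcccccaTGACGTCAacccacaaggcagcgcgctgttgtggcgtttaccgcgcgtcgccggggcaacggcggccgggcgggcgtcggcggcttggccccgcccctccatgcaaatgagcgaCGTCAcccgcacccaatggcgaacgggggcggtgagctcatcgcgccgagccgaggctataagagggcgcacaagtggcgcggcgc
JUN: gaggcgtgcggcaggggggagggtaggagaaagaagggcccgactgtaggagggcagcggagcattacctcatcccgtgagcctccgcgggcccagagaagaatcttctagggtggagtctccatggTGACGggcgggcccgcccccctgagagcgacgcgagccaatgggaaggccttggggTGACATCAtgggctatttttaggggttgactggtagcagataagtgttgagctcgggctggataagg
FOS: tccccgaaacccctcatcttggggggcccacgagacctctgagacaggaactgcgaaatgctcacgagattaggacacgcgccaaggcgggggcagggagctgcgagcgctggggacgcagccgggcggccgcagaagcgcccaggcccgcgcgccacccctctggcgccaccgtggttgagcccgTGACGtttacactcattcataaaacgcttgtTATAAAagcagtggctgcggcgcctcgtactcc
EGR1: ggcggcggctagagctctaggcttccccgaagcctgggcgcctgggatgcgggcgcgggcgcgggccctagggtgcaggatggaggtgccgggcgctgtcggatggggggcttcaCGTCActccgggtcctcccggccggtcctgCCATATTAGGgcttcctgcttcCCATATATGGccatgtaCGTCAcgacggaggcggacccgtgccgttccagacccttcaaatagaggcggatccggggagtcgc

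RefSeq windows from 250 bases before to 50 bases after the start were matched by symbol for 8 of the 10 members, all but MYC and FOSL1. The core TGACG was found in 8 of these 8 windows, against 24.6% of all 35116 windows. A full element TGACGTCA, which holds the core on both strands, was found in the JUND window, from position -200 to -193, and in 1.85% of all windows. FOS held the core at -64 to -60, upstream of its TATA box at -33 to -28, and FOSB held it at -60 to -56 with a TATA box at -30 to -25. EGR1 held 2 CArG boxes, at -105 to -96 and -83 to -74, while the window of no other member did, and 1.29% of all windows held one. JUN held TGACATCA at -67 to -60, present in 2.61% of all windows. The only AP-1 element among the 8 windows was in FOSL2, at 5 to 11 after the start, against 7.71% of all windows. The TATA box was found in FOS, FOSB and JUNB, against 11.5% of all windows. The GC box GGGCGG was found in 6 of the 8 windows (45.0% of all windows), the E-box CACGTG in none (7.26%) and the EGR element GCGNGGGCG in EGR1 alone (9.43%). Among 24 other immediate early genes with a window the core was found in 11 and the CArG box in 0. A match describes letters in this window and no binding was measured. Bases further upstream were not searched, so a missing match says nothing about elements there.

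**Figure D1:**
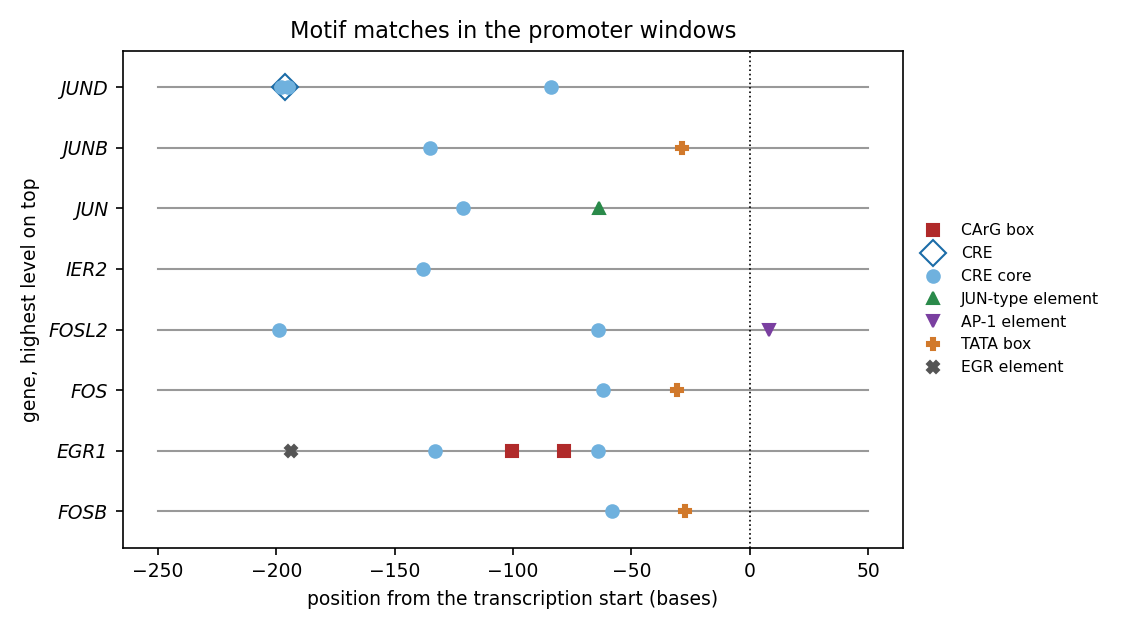
Positions of motif matches (symbols) in the promoter windows of 8 members, one line per gene with the highest RNA level on top, against the distance in bases from the transcription start (dotted line). Every line carries at least 1 CRE core; the 2 CArG boxes are on the line of EGR1, and GC boxes are not drawn.

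Of the members, 7 passed the detection rule and 3 did not. MYC, JUND, JUNB, JUN, IER2, FOSL2 and FOS, 7 of 10, were at 1 CPM or more in both libraries, against 60.9% of protein-coding genes and 24.5% of all genes. FOSL1, EGR1 and FOSB had reads in both libraries but stayed under 1 CPM. The median level of the 10 members was 3.31 ± 0.242 TPM, and that of all protein-coding genes was 2.31 ± 0.165 TPM (TPM scales reads to exon length and library, mean ± SD of the libraries' medians). Scaled to nuclear protein-coding genes alone, every TPM value of such a gene was 3.35 times as large in replicate 1 and 3.78 times in replicate 2, which leaves ratios between genes of a library as they are. Among detected protein-coding genes, of which 25.0% lie above percentile 75 by construction, 1 member did: MYC, at percentile 79.6. The count was 0 in CPM, 2 without replicate 1 and 3 against all protein-coding genes. JUND lay just under that limit, at 74.7.

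MYC (ENSG00000136997.10), on chromosome 8 at 128747680 to 128753674 (hg19, as all gene positions here), had the highest level of the 10. It had 1859 reads in replicate 1 and 2384 in replicate 2, or 23.4 TPM (95% counting interval 22.4 to 24.5) and 30.02 TPM (28.8 to 31.3). The intervals did not overlap, and replicate 2 was the higher library. The paralogs MYCL and MYCN were far lower. MYCL, known from small cell lung cancer, had 0.603 and 0.715 TPM in replicates 1 and 2, and MYC stood 40.4-fold above it (log2 ratio 5.34 ± 0.08, SD, n = 2, and 4.58 in CPM). MYCN, known from neuroblastoma, had 4 and 10 reads, and the log2 ratio of MYC to MYCN was 8.66 in replicate 1 (7.30 to 10.5) and 7.69 in replicate 2 (6.81 to 8.76). MAX, the partner that MYC needs to bind DNA, had 12.4 and 11.3 TPM, so MYC stood 2.25-fold above it (log2 ratio 1.17 ± 0.34).

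The Jun family followed MYC, with JUND at its head. JUND (ENSG00000130522.4, chromosome 19, 18390563 to 18392432), the family member known for steady expression in resting cells, had 1046 and 1082 reads, or 21.1 and 21.8 TPM in replicates 1 and 2. JUNB (ENSG00000171223.4, chromosome 19, 12902310 to 12904124), which can hold JUN activity back, had 701 and 628 reads, or 14.6 and 13.05 TPM. JUN (ENSG00000177606.5, chromosome 1, 59246465 to 59249785), the founding member and substrate of the JNK kinases, had 977 and 1084 reads, or 11.1 and 12.3 TPM. Each of these genes is 1 exon in the annotation, with no intron to splice. Exon counts do not tell new from mature RNA, here or for the other members. JUND made up 45.7% ± 0.801 of the summed TPM of the family, JUNB 29.4% ± 2.47 and JUN 24.9% ± 1.67 (SD, n = 2). JUND stood 1.84-fold above JUN (log2 ratio of JUN to JUND -0.88 ± 0.07), a difference that was not past the limit in CPM (-0.05), which does not divide by length.

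The Fos family was lower, and FOSL2 rather than FOS was its main member. FOSL2 (ENSG00000075426.7, chromosome 2, 28615315 to 28640179), which codes for the Fos-related protein Fra-2, had 392 and 426 reads in replicates 1 and 2, or 2.07 and 2.24 TPM. FOS (ENSG00000170345.5, chromosome 14, 75745477 to 75748933), the classical early gene, had 98 and 84 reads, or 1.14 and 0.978 TPM. FOSL2 made up 60.5% ± 2.66 of the summed TPM of the family and FOS 29.8% ± 3.68. FOSB (ENSG00000125740.9, chromosome 19, 45971253 to 45978437) had 29 and 17 reads, or 0.197 and 0.115 TPM. FOSL1 (ENSG00000175592.4, chromosome 11, 65659520 to 65668044), the gene of Fra-1, which is known for high levels in basal-like breast cancer cells, had 6 and 13 reads, or 0.120 and 0.260 TPM. For the last 2 genes the counting intervals of the replicates overlapped. FOS stood 7.01-fold above FOSB (log2 ratio 2.81 ± 0.39, limit 2.50), though in CPM the ratio of 2.03 was under the limit. FOSL1 lay 12.2-fold below FOSL2 (log2 ratio -3.61 ± 0.70, and -5.53 in CPM).

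Summed over their members, Jun genes stood 13.2-fold above Fos genes. The Jun family had 46.8 and 47.2 TPM in replicates 1 and 2, and the Fos family 3.53 and 3.60 TPM. The log2 ratio was 3.72 ± 0.01 (SD, n = 2). In CPM, where length is not divided out, it was 2.37, since FOSL2 has 7157 exon bases against 1870 for JUND. Between the namesakes, JUN stood 11.1-fold above FOS (log2 ratio of FOS to JUN -3.47 ± 0.26).

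EGR1 (ENSG00000120738.7, chromosome 5, 137801179 to 137805004), a zinc finger factor induced by serum and growth factors, had 12 and 17 reads, or 0.144 and 0.204 TPM in replicates 1 and 2. Its relative EGR3, known as an estrogen-responsive gene, had 73 and 104 reads. EGR1 was 3.94-fold below EGR3 (log2 ratio -1.98 ± 0.0057), which did not exceed the replicate limit of 2.50 for genes this low, while in CPM the ratio of -2.61 did. EGR2 had 6 and 0 reads and EGR4 had 0 and 2. The corepressors that bind EGR proteins were higher than the EGR genes, NAB2 with 32.7 and 31.7 TPM and NAB1 with 7.34 and 5.52 TPM. EGR1 lay 188-fold below NAB2 (log2 ratio -7.55 ± 0.39) and 37.1-fold below NAB1 (-5.21 ± 0.65, and -5.85 in CPM).

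IER2 (ENSG00000160888.6, chromosome 19, 13261229 to 13265722), an early gene that codes for a short nuclear protein, had 399 and 329 reads, or 4.90 and 4.04 TPM. An antisense row without reads covers 30.8% of its exon bases, and a row of HOOK2 covers 14.3% of those of JUNB. No option to count reads that overlap several rows is recorded, so reads on those bases may be missing from both genes. With the same reads divided by bases of their own, IER2 had 6.91 and 5.70 TPM and JUNB 16.6 and 14.9 TPM. Those values are too high if reads on the shared bases were counted. The related gene IER5 was 7.09-fold above IER2 (log2 ratio of IER2 to IER5 -2.83 ± 0.24). IER3 had no reads in either library; of 77 other protein-coding genes within 1 Mb of it on chromosome 6, 2 had 10 or more reads in a library, so its value was not read as low expression.

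**Figure D2:**
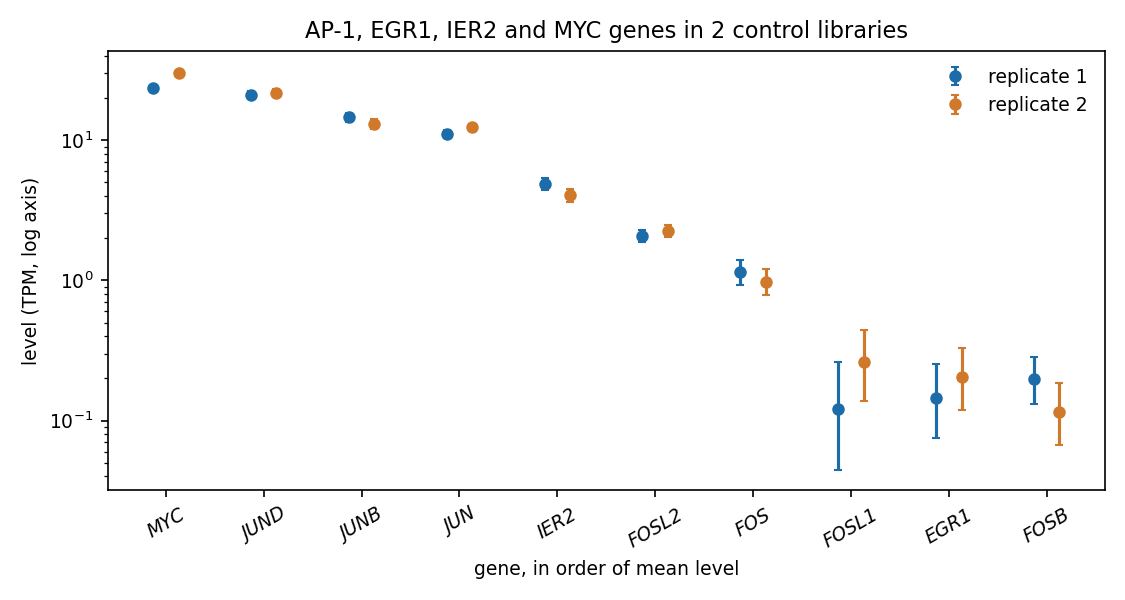
Level of each member in TPM (log axis) in replicate 1 and replicate 2, with exact Poisson 95% counting intervals, in order of mean level. Levels run from 23.4 and 30.02 TPM for MYC down to 3 genes between 0.115 and 0.260 TPM, whose intervals overlap each other.

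Neighbours in the order of levels were compared within each library. A difference counted as beyond the spread on 2 conditions. The exact counting interval of the ratio had to lie on one side of equality in each library, the same side in both. The mean log2 ratio also had to be larger than the limit, the 95th percentile of absolute replicate differences among genes of similar CPM to the lower gene. Of 9 neighbouring pairs 5 passed. The order came from these same libraries, so the direction of each mean ratio was set by the sorting. The limit covers differences between replicates and not bias between genes, such as that of exon length. JUND exceeded JUNB 1.56-fold (log2 ratio 0.64 ± 0.15, SD, n = 2) and JUN exceeded IER2 2.63-fold (1.39 ± 0.30). IER2 exceeded FOSL2 2.07-fold (1.05 ± 0.28), which turned to -0.17 in CPM. With the same reads divided by bases of their own, JUND to JUNB was 0.416, barely past its limit of 0.413. On that measure JUN to IER2 was 0.86 and IER2 to FOSL2 was 1.58. FOSL2 exceeded FOS 2.04-fold (1.03 ± 0.24, limit 0.97), but without replicate 2 the ratio was 0.86 and did not pass, and in CPM it was 2.17. FOS exceeded FOSL1 5.99-fold (2.58 ± 0.95, limit 2.50), and without replicate 1 the ratio of 1.91 did not pass, and in CPM it was 3.36. MYC and JUND did not differ beyond the spread (0.31 ± 0.22, limit 0.41), though without replicate 1 their ratio of 0.46 passed, as did that of 0.98 in CPM. JUNB and JUN did not either (0.24 ± 0.22), although with the same reads divided by bases of their own the ratio of 0.46 passed. In CPM it was -0.63. Neither did FOSL1 and EGR1 (0.04 ± 0.43) nor EGR1 and FOSB (0.19 ± 0.90). The order FOSL1, EGR1, FOSB is thus not resolved at this depth.

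The 2 libraries differed for MYC more than for nearly all genes of its level. Protein-coding genes summed to 311104 TPM in replicate 1 and 277626 in replicate 2. Here counts, not TPM, were scaled by TMM effective library sizes, with factors of 1.007 and 0.993 in replicates 1 and 2. On that scale MYC was 1.45-fold higher in replicate 2 (log2 replicate 1 over 2 of -0.53), and 99.6% of the genes between 30 and 100 CPM differed by less. The exact binomial test of its 2 counts gave an adjusted p of 4.27e-31, against counting error alone. JUN was 1.25-fold higher in replicate 2 (log2 -0.32, adjusted p = 3.46e-06 in the exact binomial test), FOSL2 1.23-fold (-0.29, 0.0120) and JUND 1.17-fold (-0.22, 0.00178), each within the 95th percentile of its class. In all, 4 of the 7 members at a mean of 1 CPM or more were called, against 40.0% of 14668 genes tested. None of the 4 was higher in replicate 1, a call made for 20.8% of genes, and all 4 were higher in replicate 2, a call made for 19.2%. Only MYC of the 10 lay beyond the 95th percentile of its class, as did 4.97% of 23856 genes at 0.1 CPM or more. For JUNB, FOS and IER2 the log2 differences were -0.02, 0.05 and 0.10, with adjusted p of 0.905, 0.930 and 0.469 in the exact binomial test. FOSL1, EGR1 and FOSB were under the minimum for that test, and their unadjusted exact binomial p were 0.0685, 0.264 and 0.186. These tests compare 2 libraries and not conditions. Among markers of other cell types, the immune gene PTPRC had 0 and 17 reads in replicates 1 and 2 and the endothelial gene VWF had 0 and 12. The summed level of 3 immune markers was 0 and 0.0754 TPM, that of 2 endothelial markers 0 and 0.0456 TPM, that of 5 fibroblast markers 1.13 and 1.20 TPM and that of 4 basal markers 2.93 and 2.04 TPM. CD3E, CD68, CDH5 and PDGFRB had no reads, and the part of such cells in the replicate difference of MYC was not tested.

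**Figure D3:**
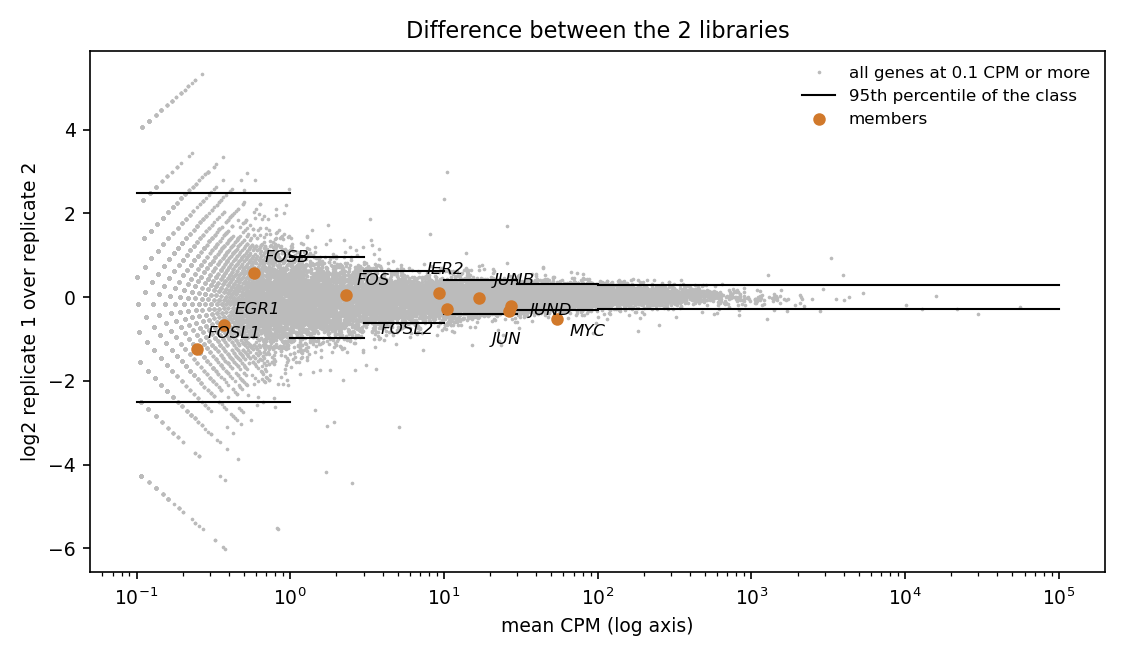
Log2 ratio of replicate 1 over replicate 2 (TMM-scaled counts) against mean CPM (log axis) for all genes at 0.1 CPM or more (grey) and the members (orange), with the 95th percentile of absolute differences in each CPM class (black lines). MYC, at -0.53, is the member outside the lines.

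Other immediate early genes were mostly present. Of 32 listed genes 26 were detected (81.2%), against 60.9% of all protein-coding genes. The median level of the 32 was 4.98 ± 0.147 TPM. RHOB, a small GTPase gene, had 98.2 and 99.6 TPM in replicates 1 and 2, PLK2, a polo-like kinase, 92.6 and 93.3, and MCL1, an antiapoptotic BCL2 relative, 92.7 and 74.5. All 3 stood above every member, while NR4A2, NR4A3, KLF2, CCN2, ARC and IER3 were not detected. FOS lay 5.98-fold below DUSP1, the phosphatase that ends MAP kinase signals (log2 ratio -2.58 ± 0.32, and -1.90 in CPM), and 4.65-fold below the stress factor ATF3 (-2.22 ± 0.13). ID1 and IER5L lay beyond the 95th percentile of their classes, with log2 replicate 1 over 2 of -0.39 and -0.54. They are 2 of the 32, and 4.97% of 23856 genes at 0.1 CPM or more lay beyond it.

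Kinases and factors that switch early genes on, and the genes that end their signal, were detected with 1 exception. Of 22 kinases and factors upstream 21 were detected (95.5%), against 60.9% of all protein-coding genes. The median level of the 22 was 9.85 ± 0.721 TPM. Among them, the serum response factor partner gene ELK1 had 28.0 ± 0.498 TPM and the kinase gene MAP2K2 had 25.9 ± 0.612 TPM. RPS6KA3, with 8 and 0 reads, was the exception and is named after its values were seen. All 10 feedback phosphatases and inhibitors were detected. Their median was 3.38 ± 0.396 TPM, and the highest were DUSP4 with 30.5 ± 1.85, ERRFI1 with 13.9 ± 0.307 and DUSP5 with 11.1 ± 1.33 TPM.

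Partners and turnover factors of the members were set beside the detected share of all protein-coding genes, 60.9%. Of 14 other bZIP genes whose proteins can pair with Fos or Jun, 10 were detected (71.4%). ATF4, a factor of the integrated stress response, led with 124 ± 4.94 TPM, followed by ATF2 with 14.2 ± 2.32 and JDP2, a repressor of AP-1, with 8.35 ± 0.709 TPM. JUND was 1.53-fold above ATF2 in TPM (log2 ratio 0.61 ± 0.27) and below it in CPM, at -1.01. In the MAX network, counted here with the MYC paralogs MYCL and MYCN, 12 of 13 genes were detected, all but MYCN. The median level of the 13 was 6.22 ± 1.61 TPM. The highest were MLX with 23.2 ± 2.35, the MYC antagonist MXD4 with 12.7 ± 0.145 and MXD3 with 11.8 ± 0.487 TPM, the last sharing 40.4% of its exon bases with other rows. All 7 genes of JUN and MYC protein turnover were detected, at a median level of 19.1 ± 2.14 TPM. The highest were the ubiquitin ligase genes ITCH (34.7 ± 3.65), SKP2 (32.4 ± 5.34) and COP1 (28.2 ± 3.94 TPM).

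Textbook targets of MYC and of AP-1 stood far apart in level. Of 15 measured MYC targets 14 were detected, and the median level of the 15 was 37.4 ± 3.71 TPM. The highest were the nucleolar protein gene NPM1 with 456 ± 48.1, PTMA with 244 ± 13.6 and NCL with 71.8 ± 5.25 TPM. TERT, with 38 and 54 reads, was the one not detected. Of 14 AP-1 targets 6 were detected, and the median level of the 14 was 0.165 ± 0.0396 TPM. The cyclin gene CCND1 led with 79.6 ± 2.62 TPM, followed by the growth factor gene AREG with 29.1 ± 1.58 and CD44 with 8.23 ± 0.276 TPM. The matrix metalloproteinase gene MMP1 and the cytokine genes IL6 and CXCL8 had no reads in either library, for which the floor of 3 reads is 0.0725 CPM in replicate 1 and 0.0806 CPM in replicate 2. Many of these targets answer to other factors too, so their levels do not measure MYC or AP-1 activity. The detected share was 93.3% for the MYC targets and 42.9% for the AP-1 targets, beside 60.9% of protein-coding genes.

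Calls in each direction were counted for the related lists. Genes of a list are not replicates, and differences between lists were not tested. Against 20.8% of all tested genes called higher in replicate 1 and 19.2% in replicate 2 (exact binomial test, adjusted p under 0.05), the other immediate early genes had 2 calls for replicate 1 and 12 for replicate 2 among 26 tested. Upstream kinases and factors had 6 and 3 of 21, and feedback genes 1 and 5 of 10. Other bZIP genes had 1 and 3 of 10, EGR and NAB genes 1 and 2 of 3, and the MAX network 1 and 4 of 12. Turnover genes had 3 and 0 of 7, MYC targets 4 and 4 of 15 and AP-1 targets 0 and 5 of 6. Beyond the 95th percentile of their classes lay 2 of 10 feedback genes, 1 of 22 upstream genes, 1 of 7 turnover genes and 1 of 14 AP-1 targets. No gene of the bZIP, EGR and NAB, MAX network or MYC target lists did. The median log2 difference, replicate 1 over 2, was -0.26 for the members, -0.18 for the other immediate early genes and -0.20 for feedback genes. It was -0.15 for the MAX network, -0.13 for EGR and NAB genes and -0.02 for MYC targets. For other bZIP genes it was 0.0034, for upstream genes 0.05 and for turnover genes 0.08. For AP-1 targets it was -0.17, the value that adding 0.5 reads to each count gives a gene without reads. Of those 14 genes 3 had no reads, so that median does not measure a difference between the libraries. These list medians cover every measured gene, detected or not. The median was -0.07 for all protein-coding genes and 0.0069 for the detected ones.

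**Figure D4:**
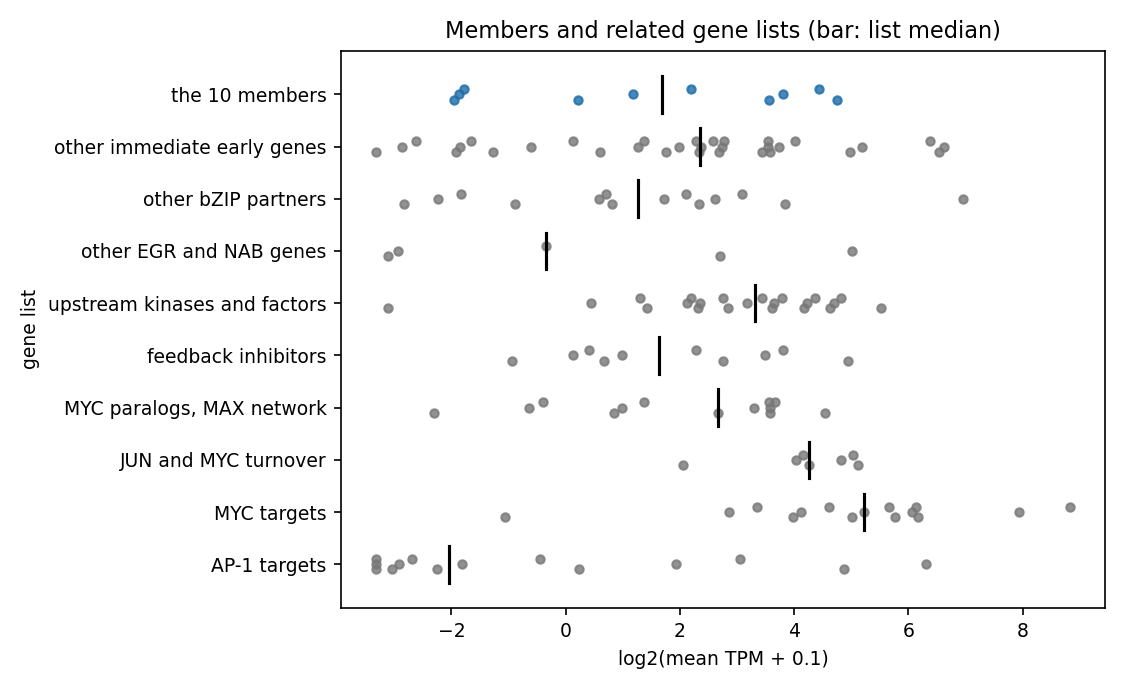
Mean level of each gene, as log2(mean TPM + 0.1), for the 10 members (blue) and 9 related gene lists (grey), with the median of each list as a black bar. The MYC targets have the highest median and the AP-1 targets the lowest.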

How the data were processed

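Total RNA of T47D cells with ESR1 Y537S and 25 nM control siRNA was sequenced as ribosomal RNA-depleted stranded libraries, per the labels' protocols. Exons of GENCODE release 19 were the counted features, and featureCounts 2.0.2 the counter, per the file headers; the deposited counts are whole numbers with no normalization, and no strand or paired-end option is recorded. The deposited gene length is another value of the table: the summed exon bases. HISAT2 and hg19 (GRCh37) are named in the submitters' processing notes; the version of HISAT2 was not given in the sources used here. Mates of a pair, if reads were paired, would then have been counted one by one, and antisense reads cannot be told apart. Cell line, residue and replicate in the column names, which name no siRNA, gave each column its sample, and 8 columns with no such match were left out. The count table holds no row without a gene.

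CPM and TPM were computed over all 57820 genes, and names matched 89.9% of identifiers. Coding genes were taken from GENCODE release 29 by identifier. TMM factors came from edgeR 4.0.16 and size factors from DESeq2 1.42.0. Replicates were compared with an exact two-sided binomial test and Benjamini-Hochberg adjustment over genes with a mean of 1 CPM or more. The test was checked on counts simulated with counting error alone, which says nothing about other differences between libraries. Intervals are exact 95% Poisson or conditional binomial intervals; these, the tests and the floor of 3 reads cover counting error only, because without molecular identifiers 1 molecule can give several reads. CPM classes began at 0.1, 1, 3, 10, 30 and 100 CPM. Promoter sequences are those of RefSeq. The rule for named genes took all members, the 3 highest detected genes of each related list and the genes of 18 fixed pairs. Of these pairs 17 had reads for both genes. Undetected genes, ID1, IER5L, EGR2, EGR4 and the markers were named after their values were seen. The result for 1 gene that this rule names is not reported here. Likeness of patterns was not computed, since 1 group gives no pattern. BOP1 and PECAM1 were not matched by symbol. Members and lists were chosen with earlier results of these data known.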

Additional observations from a re-analysis of the deposited data

How the results depend on the processing

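The count of detected members was 7 from either library alone and at 0.5 CPM, and 6 at 5 CPM. The number of members above percentile 75 of detected protein-coding genes was 1, ranged from 1 to 2 when either replicate was left out, was 0 in CPM with no division by length and 3 against all protein-coding genes with no filter. The log2 ratio of the Jun to the Fos family was 3.79 with the same reads divided by exon bases that no other row covers. It was 2.37 in CPM, and 3.71 to 3.73 from single libraries. The number of neighbouring pairs beyond the spread ran from 4 to 6 over 4 alternatives, against 5. The count of members differing between replicates was 4 under library sizes alone, under DESeq2 size factors and with no filter. In CPM the direction turned for JUNB to JUN (log2 ratio -0.63), IER2 to FOSL2 (-0.17), FOSL1 to EGR1 (-0.69), EGR1 to FOSB (-0.64), JUN to JUNB (0.63) and JUND to ATF2 (-1.01), where exon length is not divided out. From single libraries, the ratio of FOSL1 to EGR1 ran from -0.27 to 0.35 and that of EGR1 to FOSB from -0.45 to 0.82, with the negative values in replicate 1. Scaled to nuclear protein-coding genes, the TPM of all 10 members moved, for MYC to 78.5 and 114 TPM in replicates 1 and 2. No paired analysis was possible because the labels give 1 group. With 6 to 29 reads a library, FOSL1, EGR1 and FOSB cannot be ordered.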
